A study of Mus musculus with 15 samples.

Results

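miR-155, miR-147 and miR-187 are miRNAs of macrophage activation, and 4 of their mature strands are described here: mmu-miR-155-5p, mmu-miR-155-3p, mmu-miR-147-3p and mmu-miR-187-3p, written below without the species prefix. They were taken by name from a table of 1424 mature mouse miRNAs, and all 4 were among the 818 that passed the filter on low values. The samples were 15 whole lungs of C57BL/6 mice aged 11 weeks, either wild type (WT) or homozygous for R213G, a variant of extracellular superoxide dismutase (EC-SOD), the antioxidant enzyme of the extracellular space. A single dose of 100 uL was given into the trachea, either phosphate-buffered saline (PBS) or bleomycin at 1 U/mL, a DNA-damaging drug that injures the lung. Lungs were flushed with PBS and frozen 7 days later, and small RNA was sequenced from 7 WT lungs, 3 after PBS and 4 after bleomycin, and from 8 R213G lungs, 4 after each. Both sexes were used, and every group shares the strain, the age and the instillation. Nothing in the labels states that libraries were pooled, and each was counted as a mouse. The p-values therefore measure the spread between these libraries only.

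In macrophages, Toll-like receptor signalling through NF-kB and AP-1 switches on the non-coding gene that yields miR-155. The 5p strand of miR-155 represses inhibitors of cytokine signalling such as SHIP1 and SOCS1 and so favours the inflammatory state, while the 3p strand is the scarcer partner of the same hairpin. miR-147 is induced by the same receptors and is known to restrain cytokine production in murine macrophages. miR-187 was described as a miRNA that interleukin-10 induces in stimulated human monocytes, where it lowers tumour necrosis factor. Bleomycin injury brings monocytes and macrophages into the lung, and these cells change state as the injury passes from inflammation to repair.

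The sequences below show how the strands of miR-155 lie in their hairpin and which seed, the bases that pair with target transcripts, each strand carries. They are RefSeq sequences on GRCm38.p6, written 5′ to 3′. In the hairpin the mature strands are in capitals, and in the mature strands bases 2 to 8, the seed, are in capitals.
Mir155 hairpin: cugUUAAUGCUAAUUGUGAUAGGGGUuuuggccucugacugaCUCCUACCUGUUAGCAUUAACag
miR-155-5p: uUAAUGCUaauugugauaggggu
miR-155-3p: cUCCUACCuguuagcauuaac
miR-147-5p: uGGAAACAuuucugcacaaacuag
The Mir155 hairpin has 65 bases and lies at chr16:84714140-84714204 on the plus strand, inside exon 2 of both annotated transcripts of the long non-coding gene Mir155hg. Its 2 mature strands are separated by 16 bases. The Mir147 hairpin lies at chr2:122640803-122640881 on the plus strand, inside the 3′ UTR of the protein-coding gene AA467197, also called Nmes1. Mature sequences were found for 2 of the 4 members, miR-155-5p and miR-155-3p, and miR-147-5p, the partner strand of miR-147-3p, is shown because it was measured too. Among the 1199 miRNAs of the table with a RefSeq sequence, 0 others shared bases 2 to 8, or 2 to 7, with either strand of miR-155.

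Values are log2 of 1 plus a count that was equalized between libraries. The equalized counts do not give the read depth. Smooth muscle, endothelial and epithelial markers were abundant in every group. The liver, neuron, striated muscle and pancreas markers together held 328 to 3079 equalized counts per library, against 237072 to 339212 for the epithelial markers. The marker lists held none for lung alone, so they describe the tissue without identifying it. WT PBS replicate 3 was the highest of the WT PBS libraries for both strands of miR-155 and for miR-147-3p. Of 74 miRNAs that were called higher and rose at least 2-fold after bleomycin in R213G mice, 45 were higher in this library than in both other WT PBS libraries. It has no part in the R213G means, but it enters the spread behind the calls, which limma pools over all libraries. The same count was not made over all tested miRNAs or for the other WT PBS libraries. The WT results of miR-155 and miR-147-3p are therefore given with and without it. The reason for its position was not tested.

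After bleomycin, 3 of the 4 members rose in both genotypes and miR-187-3p did not pass the test. Of all 818 miRNAs tested with limma, 16.4% were called higher and 10.3% lower in WT, and 22.2% higher and 19.8% lower in R213G. Ranked by signed log2 difference, from the largest rise down, miR-147-3p was 6th of the 818 in WT and 2nd in R213G. By the same ranking miR-155-3p was 48th and 37th, and miR-155-5p 79th and 87th.

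**Figure D1:**
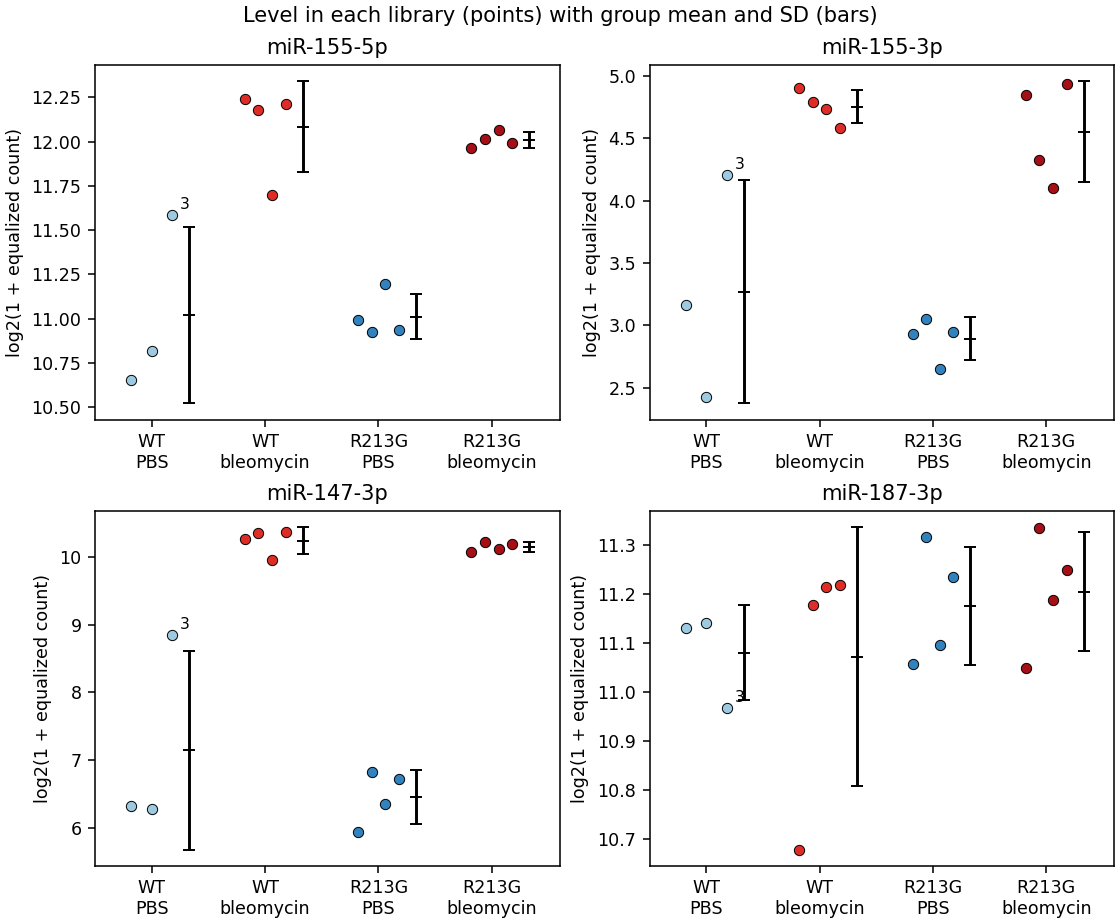
Level of each member in every library, as log2 of 1 plus the equalized count, by genotype and treatment (each panel has its own axis range), with group mean and SD beside the points and WT PBS replicate 3 marked 3. For miR-155-5p, miR-155-3p and miR-147-3p all bleomycin libraries lie above all PBS libraries of the same genotype, except that WT PBS replicate 3 comes close, and for miR-187-3p the groups overlap.

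The pro-inflammatory strand miR-155-5p stood at 10.66, 10.81 and 11.59 in the WT PBS libraries and at 12.24, 12.18, 11.70 and 12.21 in the WT bleomycin libraries. The groups did not overlap, but the highest PBS library, replicate 3, lay just below the lowest bleomycin library, also replicate 3. Groups that do not overlap, with bleomycin higher, were found for 18.7% of tested miRNAs in WT and 21.9% in R213G. The WT difference was 1.06 ± 0.18 on the log2 scale (SE; limma, adjusted p = 0.000444), or 2.09-fold, and 1.35 ± 0.14 (adjusted p = 3.22e-06), or 2.55-fold, without WT PBS replicate 3. In R213G mice the PBS libraries held 10.99, 10.92, 11.20 and 10.93 and the bleomycin libraries 11.96, 12.02, 12.06 and 11.99. Here the groups were well separated, and the bleomycin libraries lay closer together than the PBS libraries. The R213G difference was 1.00 ± 0.17 (SE; limma, adjusted p = 0.000281), or 2.00-fold. In the authors' deposited table the same differences had q-values of 0.276 in WT and 0.00813 in R213G, from an unequal-variance test of the 2 groups compared alone. The WT q-values of that authors' deposited table were 0.388 for miR-155-3p and 0.313 for miR-147-3p, so 0 of the 3 passed there, while in R213G they were 0.0245 and 0.00871. The Wilcoxon q-values of the authors' deposited table were 0.223 in WT and 0.109 in R213G for each of the 3.

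The partner strand miR-155-3p was far scarcer, at 4.4 to 17.5 equalized counts in WT PBS and 5.3 to 7.3 in R213G PBS libraries. In log2 values the WT PBS libraries held 3.17, 2.43 and 4.21 and the WT bleomycin libraries 4.91, 4.79, 4.73 and 4.58. Again WT PBS replicate 3 was the highest PBS library, and the groups did not overlap. The rise was 1.49 ± 0.34 (SE; limma, adjusted p = 0.00358), and 1.96 ± 0.30 (adjusted p = 0.000155) without that library. In R213G mice it went from 2.93, 3.05, 2.65 and 2.95 to 4.85, 4.33, 4.10 and 4.94, a rise of 1.66 ± 0.31 (SE; limma, adjusted p = 0.000657). As fold changes these were 3.16 in R213G and 2.80 in WT, the latter 3.88 once WT PBS replicate 3 was left out. At such low counts a fold on the log2 scale of 1 plus the count understates the change, and a pseudocount of 10 in place of 1 lowered the log2 differences to 0.90 and 0.99, both still called.

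Both strands come from the same hairpin, and their balance was compared within each library. The excess of miR-155-5p over miR-155-3p was 7.75 ± 0.55 log2 units (SD, n = 3) in WT PBS, 7.33 ± 0.27 (SD, n = 4) in WT bleomycin, 8.12 ± 0.30 (SD, n = 4) in R213G PBS and 7.45 ± 0.45 (SD, n = 4) in R213G bleomycin libraries. As ratios of equalized counts plus 1, these are about 215, 161, 278 and 175 copies of the 5p strand per copy of the 3p strand, as geometric means. The groups overlapped in both genotypes, from 6.97 to 7.63 against 7.38 to 8.39 in WT and from 7.05 to 7.96 against 7.87 to 8.55 in R213G. Averaged over genotypes, the balance was lower after bleomycin by -0.54 (exact permutation within genotypes, two-sided, p = 0.0163, adjusted over 9 within-library comparisons p = 0.0245). This call rested on the few counts of miR-155-3p. It no longer passed when WT bleomycin replicate 3 was left out (-0.48, adjusted p = 0.0579), without WT PBS replicate 2 (-0.38, adjusted p = 0.0886) and without R213G PBS replicate 3 (-0.47, adjusted p = 0.0588), and with a pseudocount of 10 the difference was 0.08 (adjusted p = 0.831), all by the same exact permutation test.

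The member with the greatest change was miR-147-3p, the Toll-like receptor-induced restraint on macrophage cytokines. The WT PBS libraries held 6.32, 6.28 and 8.84, and the WT bleomycin libraries 10.26, 10.36, 9.95 and 10.37. WT PBS replicates 1 and 2 were alike and replicate 3 lay 2.54 above their mean, which is 64.6% of the way to the mean of the bleomycin libraries. The same library lay 63.2% of the way for miR-155-5p and 72.2% for miR-155-3p. With all libraries the WT rise of miR-147-3p was 3.09 ± 0.43 (SE; limma, adjusted p = 7.47e-05), or 8.50-fold, and without replicate 3 it was 3.94 ± 0.20 (adjusted p = 5.48e-10), or 15.3-fold.

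In R213G mice miR-147-3p stood at 5.94, 6.82, 6.35 and 6.73 after PBS and at 10.07, 10.22, 10.11 and 10.19 after bleomycin. The bleomycin libraries of this genotype lay close together and more than 3 log2 units above every PBS library. The difference was 3.69 ± 0.40 (SE; limma, adjusted p = 4.14e-06), or 12.9-fold, from a mean of 89.4 to 1135 equalized counts. The labels carry tag numbers that fall into a lower and a higher run among R213G libraries, with 2 PBS and 2 bleomycin libraries in each. Within these the difference was 3.95 and 3.44 for miR-147-3p, 0.92 and 1.08 for miR-155-5p, and 1.69 and 1.63 for miR-155-3p. Among WT libraries the tag numbers separate bleomycin from PBS, so that tag and treatment cannot be told apart there. All R213G tags are also lower than all WT tags.

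The partner strand miR-147-5p was close to the limit of detection. In R213G mice its PBS libraries held 0, 0, 0.0036 and 0.85 and its bleomycin libraries 3.69, 2.57, 3.76 and 2.75. In WT mice it held 1.77, 0.09 and 0.82 after PBS and 2.16, 3.29, 2.49 and 3.52 after bleomycin. Here WT PBS replicate 3 lay between the other PBS libraries. It passed the filter on low values through bleomycin libraries alone, since its PBS libraries held at most 2.4 equalized counts. No test and no fold is therefore given for it, and the gap between its groups is not read as a rise.

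The interleukin-10-linked miR-187-3p did not pass the test after bleomycin in either genotype. It stood at 11.13, 11.14 and 10.97 in WT PBS, at 10.68, 11.18, 11.21 and 11.22 in WT bleomycin, at 11.06, 11.32, 11.10 and 11.23 in R213G PBS and at 11.05, 11.33, 11.19 and 11.25 in R213G bleomycin libraries. All 4 groups overlapped, and the lowest value belonged to WT bleomycin replicate 1. The difference was -0.01 in WT, with a 95% confidence interval of -0.29 to 0.27 (limma, adjusted p = 0.979), and 0.03 in R213G, with an interval of -0.23 to 0.29 (adjusted p = 0.863). These intervals hold no change as large as that of any other member. Its partner miR-187-5p stood between 5.23 and 6.21 in all 15 libraries, with differences of -0.21 and -0.17 that did not pass (adjusted p = 0.518 and 0.530). With equal library medians the miR-187-3p difference in R213G was -0.10, and it did not pass either (adjusted p = 0.555).

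**Figure D2:**
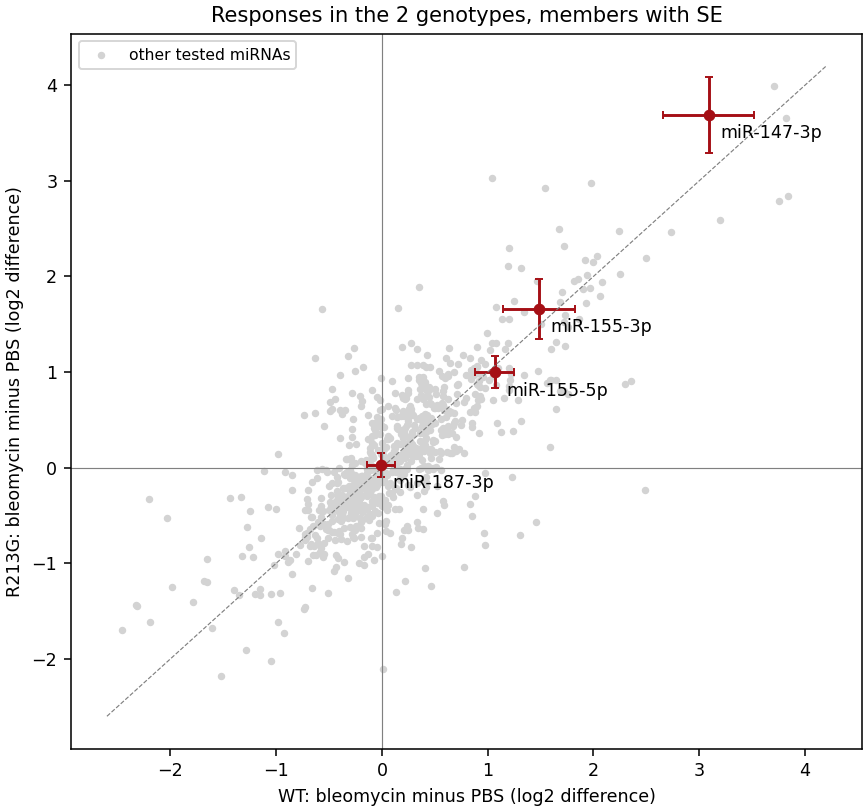
Log2 difference between bleomycin and PBS in WT (horizontal axis) and R213G mice (vertical axis) for the 818 tested miRNAs (grey), with the 4 members in red and their SE; the dashed line marks equal responses. The member miR-147-3p, at 3.09 and 3.69, lies near the upper end of all miRNAs, both strands of miR-155 lie between 1.00 and 1.66, and miR-187-3p lies at 0.

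Genotype made no difference that passed the test for any member. Since the tag numbers separate the genotypes, genotype and tag number cannot be told apart in these comparisons. After PBS the R213G minus WT differences were -0.01 for miR-155-5p, -0.38 for miR-155-3p, -0.69 for miR-147-3p and 0.10 for miR-187-3p (limma, adjusted p of at least 0.860 for each). Without WT PBS replicate 3 the first 3 became 0.28, 0.10 and 0.16, so that their sign rested on that library (adjusted p = 0.566, 0.927 and 0.829). After bleomycin the differences were -0.08, -0.20, -0.09 and 0.13 (adjusted p of at least 0.714 for each). The widest of these intervals, for miR-147-3p, ran from -0.93 to 0.76. Over all tested miRNAs 0% were called by genotype in either treatment, and 5.38% after PBS and 11.9% after bleomycin had an unadjusted p under 0.05.

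The difference between the genotypes' responses was tested directly as an interaction. It was 0.60 for miR-147-3p, with a 95% interval of -0.64 to 1.84 (limma, adjusted p = 0.831), and -0.25 without WT PBS replicate 3 (adjusted p = 0.785). For miR-155-5p it was -0.07, with an interval of -0.59 to 0.45, for miR-155-3p 0.17, with an interval of -0.80 to 1.15, and for miR-187-3p 0.04, with an interval of -0.34 to 0.42. Of all tested miRNAs 0% were called for the interaction, and 7.95% had an unadjusted p under 0.05. Responses that differ by up to the ends of these intervals are not excluded by these libraries. Since tag and treatment cannot be told apart among WT libraries, the interaction shares that limit.

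In whole lung, fewer cells of a type and less RNA per cell cannot be told apart, and markers of blood-derived cells moved with the members. For the marker counts that follow, the shares over all tested miRNAs were 16.4% higher and 10.3% lower in WT, and 22.2% higher and 19.8% lower in R213G. Of the 5 blood-derived and myeloid markers (both strands of miR-142a, both of miR-223, and miR-511-3p), WT mice had 4 that rose and R213G mice 3, and the others did not pass. Their summed equalized counts ran from 53541 to 63099 in WT PBS, 80976 to 122147 in WT bleomycin, 72120 to 79174 in R213G PBS and 82885 to 94717 in R213G bleomycin libraries, and 0 of the 5 were at 0 throughout a group. The pan-leukocyte strand miR-142a-3p rose by 1.20 in WT and 0.85 in R213G (limma, adjusted p = 0.00061 and 0.00255), while the myeloid miR-223-3p held differences of 0.25 and -0.18 that did not pass. Its partner strand miR-223-5p rose by 1.05 and 0.71 (adjusted p = 0.00016 and 0.00132), and the macrophage miRNA miR-511-3p by 1.25 and 1.74. Of 3 lymphocyte markers 0 rose, while 1 fell in WT and 2 in R213G. Each member was therefore set against miR-142a-3p and miR-223-3p within the same library.

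**Figure D3:**
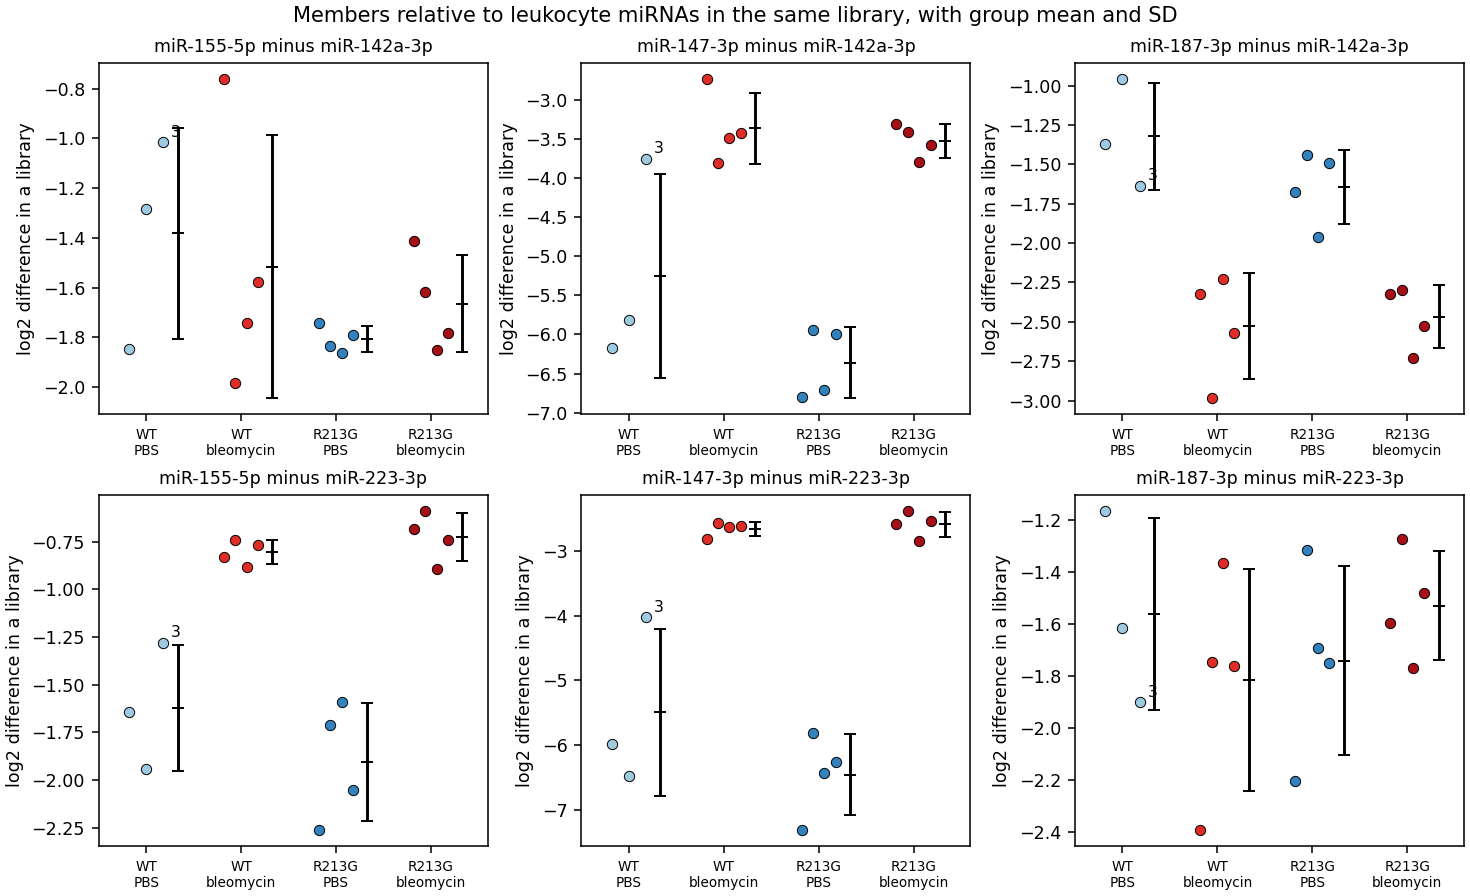
Log2 difference between a member and a leukocyte miRNA of the same library, for miR-142a-3p (top row) and miR-223-3p (bottom row), with group mean and SD beside the points and WT PBS replicate 3 marked 3. For miR-147-3p the bleomycin libraries stand above the PBS libraries against both references except that WT PBS replicate 3 reaches the lowest WT bleomycin library against miR-142a-3p, while miR-155-5p against miR-142a-3p overlaps between treatments.

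Relative to miR-142a-3p, miR-147-3p rose. Its log2 value minus that of miR-142a-3p was -6.18, -5.82 and -3.76 in the WT PBS libraries and -2.74, -3.81, -3.49 and -3.42 in the WT bleomycin libraries. In R213G mice it ran from -6.80 to -5.94 after PBS and from -3.80 to -3.31 after bleomycin. Of the PBS libraries, only WT PBS replicate 3 reached the range of the bleomycin libraries. Averaged over genotypes the gain was 2.36 (exact permutation within genotypes, two-sided, adjusted p = 0.00147), and relative to miR-223-3p it was 3.36 (adjusted p = 0.000918, from the smallest p that the permutations can give, 0.000408). With the partner strands miR-142a-5p and miR-223-5p as references, an alternative added after the data were seen, the gains were 2.94 and 2.51 (adjusted p = 0.00184 for each by the same exact test).

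For miR-155-5p the result depended on the reference. Its log2 value minus that of miR-142a-3p ran from -1.85 to -1.02 in WT PBS, -1.98 to -0.76 in WT bleomycin, -1.86 to -1.74 in R213G PBS and -1.85 to -1.41 in R213G bleomycin libraries, so that the treatments overlapped. Averaged over genotypes its difference relative to miR-142a-3p was 0.0046 (exact permutation, adjusted p = 0.980). Relative to miR-223-3p it rose by 1.00 (exact permutation, adjusted p = 0.000918). With the partner strands as references these became 0.58 (adjusted p = 0.00429) relative to miR-142a-5p and 0.15 (adjusted p = 0.236) relative to miR-223-5p, both by exact permutation. The scarce miR-155-3p gained 1.54 relative to miR-223-3p (adjusted p = 0.000918) and 0.55 relative to miR-142a-3p, which did not pass (adjusted p = 0.0976, and 0.0245 without WT PBS replicate 3, all by exact permutation). With the partner strands it gained 1.13 relative to miR-142a-5p (adjusted p = 0.00367), which passed, and 0.70 relative to miR-223-5p (adjusted p = 0.0211), by exact permutation. The difference of miR-187-3p was -1.02 relative to miR-142a-3p (adjusted p = 0.000918, or -0.44 and adjusted p = 0.00367 relative to miR-142a-5p) and -0.02 relative to miR-223-3p (adjusted p = 0.980, or -0.87 and adjusted p = 0.00245 relative to miR-223-5p), by exact permutation. The part that blood-derived cells have in the members' rise was not tested.

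The distance between miR-147-3p and miR-155-5p was smaller in every bleomycin library than in any PBS library, a description with no test. Within a library the log2 value of miR-147-3p minus that of miR-155-5p was -4.33, -4.54 and -2.74 in WT PBS, -1.97 to -1.75 in WT bleomycin, -5.06 to -4.11 in R213G PBS and -1.95 to -1.79 in R213G bleomycin libraries. The 8 bleomycin libraries thus kept the pair at nearly the same distance, and WT PBS replicate 3 lay between them and the other PBS libraries. A read covers a whole mature strand, so these differences between miRNAs were not divided by length. By level in the bleomycin libraries miR-155-5p ranked above the other members, at 120th of the 818 miRNAs in the highest case. There miR-187-3p ranked between 155th and 169th, miR-147-3p between 180th and 204th, and miR-155-3p between 499th and 582nd. In PBS libraries miR-155-5p (148th to 169th) and miR-187-3p (156th to 167th) were neighbours whose ranks overlapped, while miR-147-3p ranked between 263rd and 413th.

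Other miRNAs induced by Toll-like receptor or NF-kB signalling in macrophages went both ways. Of 11 listed and tested, 2 fell in each genotype, 5 rose in WT (4 did not pass) and 6 rose in R213G (3 did not pass). Over all tested miRNAs 16.4% were called higher and 10.3% lower in WT, and 22.2% higher and 19.8% lower in R213G. The count of fallers is thus near the share over all tested miRNAs. For the 11 listed miRNAs, the median is given next. Their median log2 difference was 0.29 in WT and 0.35 in R213G, against 0.05 over all tested miRNAs in each. The list was written with earlier results of these data known, so this comparison of medians is a description. The risers with the smallest p were miR-21a-5p (1.94 and 2.02), miR-212-3p (1.9 and 1.86), miR-132-3p (1.73 and 1.60), and miR-146b-5p (1.70 and 1.84), a feedback inhibitor of NF-kB signalling, with the WT value first. The genes of miR-212 and miR-132 lie in the same CREB-induced cluster. Each of these 4 rose more than miR-155-5p and less than miR-147-3p in both genotypes, a comparison of estimates that was not tested. The fallers in both genotypes, named after their values were seen, were miR-146a-5p (-0.51 and -0.73), which shares its seed with miR-146b-5p, and miR-125a-5p (-0.38 and -0.41). The miRNA let-7e-5p, from the same cluster as miR-125a-5p and miR-99b-5p, rose by 0.29 and 0.23 and was likewise named after its values were seen.

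Of 7 miRNAs linked to alternative activation or restraint of macrophages, each genotype had 1 that rose, 1 that fell and 5 that did not pass. These counts are near the shares called over all tested miRNAs, 16.4% higher and 10.3% lower in WT and 22.2% higher and 19.8% lower in R213G. The median difference was 0.25 in WT and 0.03 in R213G mice, for a list also written with earlier results of these data known. The riser was miR-511-3p, encoded in the gene of the macrophage mannose receptor, with 1.25 ± 0.20 in WT and 1.74 ± 0.19 in R213G (SE; limma, adjusted p = 0.000296 and 4.2e-06). The faller was miR-125b-5p, which restrains tumour necrosis factor (-0.45 and -0.41). The differences of miR-124-3p, a miRNA of neurons that is also linked to quiescent microglia and macrophages, were 1.08 and 1.68 with wide errors and did not pass (adjusted p = 0.341 and 0.0804). Those of let-7c-5p were -0.29 and 0.03.

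**Figure D4:**
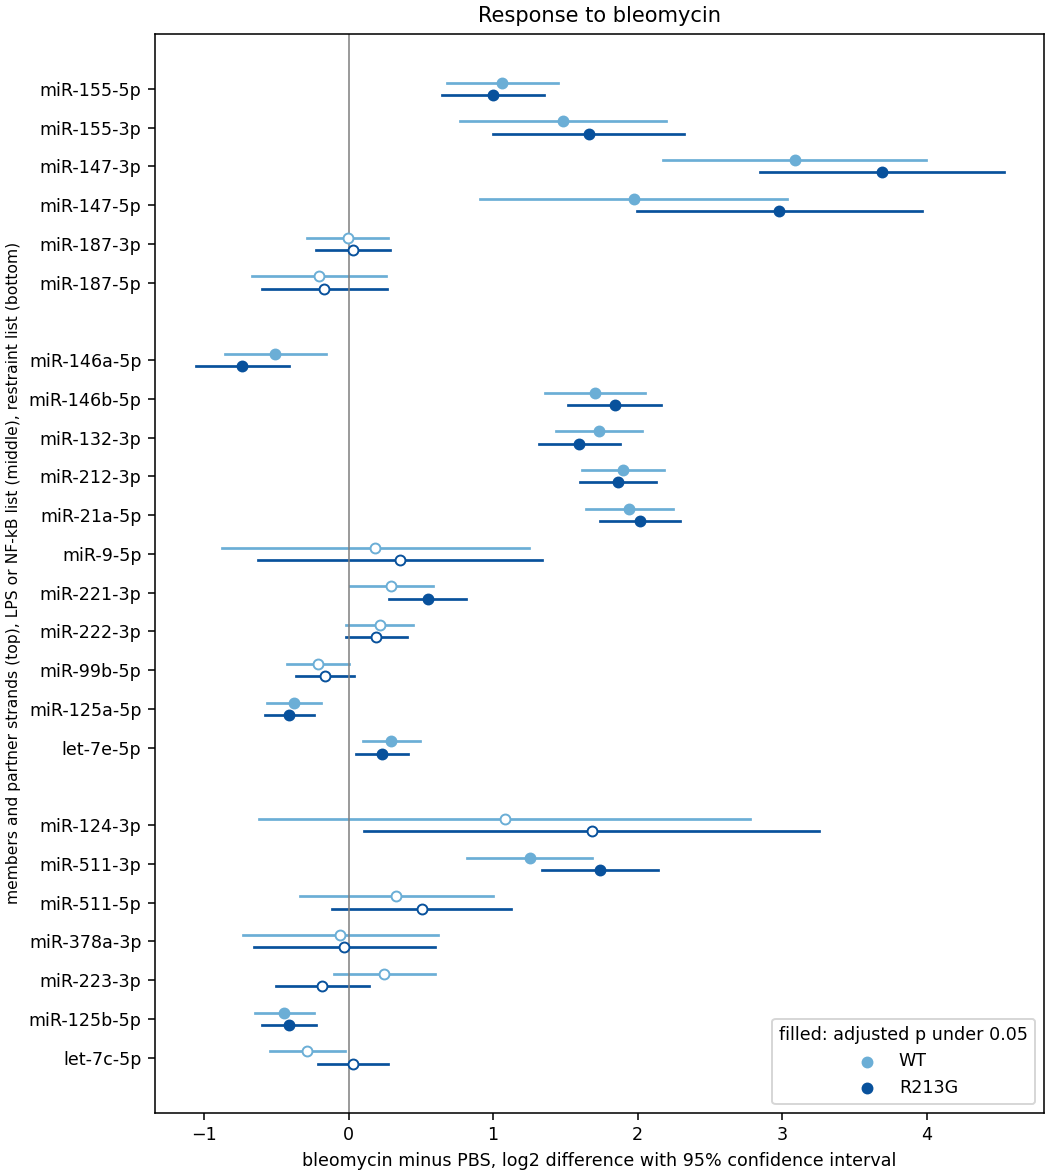
Log2 difference between bleomycin and PBS with its 95% confidence interval in WT (light blue) and R213G mice (dark blue) for the members with their partner strands, the 11 miRNAs induced by Toll-like receptor or NF-kB signalling and the 7 linked to restraint; filled points passed an adjusted p under 0.05, which for miR-147-5p is no test, since it passed the filter through bleomycin libraries alone. The member strand of miR-147 and both strands of miR-155 lie to the right of 0 in both genotypes. Neither the point nor the interval of miR-147-5p is read as a rise, since its bleomycin libraries alone took it through that filter. Both strands of miR-187 straddle 0, and the listed miRNAs lie on both sides.

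The miRNAs with the most similar profile over the 15 libraries were found by the root-mean-square distance of log2 values after each miRNA's own mean was subtracted. Nearest to miR-155-5p were miR-410-3p (0.20), miR-125b-1-3p (0.20) and miR-409-3p (0.22), on a scale on which miR-155-5p itself varied by 0.56 around its mean. Nearest to miR-155-3p were miR-380-3p (0.32), miR-341-3p (0.33) and miR-146b-3p (0.37), and its own partner miR-155-5p was 16th (0.46). Nearest to miR-147-3p were miR-21a-3p (0.72), miR-449a-3p (0.84) and miR-184-3p (0.87), against a spread of 1.82 of its own. Those nearest to miR-187-3p, miR-181a-1-3p (0.12), miR-872-5p (0.13) and miR-103-3p (0.14), lay at distances below its own spread of 0.16, and 0 of the 3 passed the test after bleomycin in either genotype. The libraries share their scaling, and these distances are a description.

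Since miR-155 and miR-147 both rose, the windows around the RefSeq start sites of their host genes, 250 bases before to 50 after, were searched on both strands for 5 motifs. The AP-1 motif TGANTCA was found once, 73 bases before the RefSeq start of AA467197, and not in the window of Mir155hg, and 7.81% of 32851 promoters hold it. The stretch that carries it lies between annotated UTRs at chr2:122637755-122637849 (GRCm38.p6, plus strand, RefSeq) and is shown with the match in capitals. It is upstream of the RefSeq start only, since the annotated gene begins earlier, at 122636986.
AA467197 upstream stretch: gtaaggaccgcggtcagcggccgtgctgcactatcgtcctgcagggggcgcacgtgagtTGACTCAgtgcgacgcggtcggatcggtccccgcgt
A loose NF-kB motif, GGG and CC separated by any 5 bases, was found once in the window of AA467197 and not in that of Mir155hg, and 50.8% of promoters hold it. A narrower NF-kB motif, GGG and TTTCC separated by any 2 bases (1.63% of promoters), which is contained in the loose form, the STAT motif TTCNNNGAA (8.3%) and the IRF motif of GAAA repeated after any 2 bases (3.44%) were in neither window. These matches describe letters in a window, and no binding was measured.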

How the data were processed

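Small RNA libraries of 15 lungs were analysed from the authors' deposited table. The submitters' processing notes name Bowtie2 2.3.2, SAMtools 1.9 and edgeR, and neither the genome build nor the miRBase release is given in those sources. The authors deposited log2 values per library, taken from the values themselves to be log2 of 1 plus a count equalized between libraries. The scale was inferred: the table is named for RPKM, and nothing else states a unit. The read depth is unknown, and no counting interval was computed. The authors also deposited log2 fold changes with p-values and q-values of Welch and Wilcoxon tests.

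In R 4.3.3, limma 3.58.1 fitted the 4 group means to the log2 values of the 15 libraries, its variance prior following the mean level, and gave 5 contrasts. A miRNA was tested if 3 or more libraries had over 5 equalized counts, which 818 met. Benjamini-Hochberg adjustment ran over these 818, and an adjusted p under 0.05 was called. A fold is 2 raised to the log2 difference. Within-library differences were averaged over genotypes and tested by exact permutation of 2450 relabelings within genotypes, adjusted over 9 quantities. With 1 genotype alone the smallest p is 0.0286. Procedures were tested on simulated data.

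Named were the members, their partner strands, the 3 nearest profiles per member, seed sharers and up to 4 miRNAs per list with the smallest p. The members and lists were chosen with earlier results of these data known. Marker lists for blood-derived, lymphocyte, erythroid, endothelial, epithelial, smooth muscle and other-organ miRNAs were summed per library. After bleomycin in WT and R213G, 2 and 1 of 3 erythroid, 0 and 1 of 2 endothelial, 1 and 3 of 5 epithelial, 1 and 1 of 2 smooth muscle and 0 and 1 of 4 other-organ markers fell, and 0 of these rose. Over all tested miRNAs 10.3% were called lower in WT and 19.8% in R213G, and 16.4% and 22.2% higher.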

Additional observations from a re-analysis of the deposited data

Results flagged for a closer look

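In 45 groups of 4 libraries, covering the members, their partner strands and the within-library differences, 4 had a library far from the other 3 by Dixon's test, where chance alone flags about 1 group in 20. The value of miR-155-5p in WT bleomycin replicate 3 was 11.70, against 12.18 to 12.24 in the other 3 libraries. That of miR-187-3p in WT bleomycin replicate 1 was 10.68, against 11.18 to 11.22. The partner strand miR-147-5p stood at 0.85 in R213G PBS replicate 4 and at 0 to 0.0036 in the other 3, all close to the limit of detection. The difference of miR-155-3p minus miR-142a-3p was -10.41 in R213G PBS replicate 3, against -9.81 to -9.71.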

How the results depend on the processing

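The bleomycin calls of miR-155-5p, miR-155-3p and miR-147-3p kept their direction and passed in all 156 values recomputed over the 2 genotypes, each left-out library and 11 other settings. Many of these values could not change direction. A left-out library of the other genotype or a changed filter leaves the estimate as it was and alters only its error and adjustment. The looser threshold, an adjusted p under 0.1, could not lose a call. Without 1 library, the WT differences ran from 0.88 to 1.35 for miR-155-5p, 1.07 to 1.96 for miR-155-3p and 2.65 to 3.94 for miR-147-3p. Some values that did not pass changed sign. Leaving out 1 library gave -0.063 to 0.12 (WT) and -0.014 to 0.082 (R213G) for the miR-187-3p response and -0.095 to 0.093 for its interaction. Interactions ran from -0.35 to 0.11 for miR-155-5p, -0.30 to 0.59 for miR-155-3p and -0.25 to 1.04 for miR-147-3p, and R213G minus WT after PBS from -0.19 to 0.28, -0.79 to 0.10 and -1.12 to 0.16. The miR-187-3p response in R213G was -0.10 with equal library medians and -0.058 with quantile normalization, and its interaction -0.017 with quantile normalization and -0.016 with array weights, which gave 0.043 for the response in WT. R213G minus WT after PBS for miR-155-5p was 0.12 with array weights and 0.036 with a term for tag block. Within a library, 1 left-out library gave -0.64 to -0.38 for the miR-155 strand balance, -0.12 to 0.10 and 0.41 to 0.73 for miR-155-5p and miR-155-3p minus miR-142a-3p, and -0.11 to 0.077 for miR-187-3p minus miR-223-3p. A pseudocount of 10, above the PBS counts of miR-155-3p in 6 of 7 libraries, gave 0.080 for the strand balance and -0.078 for miR-155-3p minus miR-142a-3p. Group medians gave -0.13 for miR-155-5p minus miR-142a-3p and 0.023 for miR-187-3p minus miR-223-3p. The partner strand as reference, chosen after seeing the data, gave 0.58 for miR-155-5p and 1.13 for miR-155-3p against miR-142a-5p, and 0.15 for miR-155-5p and -0.87 for miR-187-3p against miR-223-5p. Except where stated, the cause was not tested.

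Array weights called 2 miRNAs higher in R213G than WT after bleomycin, and leaving out WT bleomycin replicate 1, or a term for tag block, called 1, against 0. Replicate numbers gave no pairing that held in all groups: 6 of 14 same-numbered pairs had a correlation of deviations over 0.1 (range -0.14 to 0.26), and 5 correlated best with their own number. Between R213G PBS and R213G bleomycin, replicates 2, 3 and 4 did so (0.14, 0.26 and 0.14) and replicate 1 did not (-0.14). Whether those libraries are paired was not tested. With the replicate block miR-147-3p differed by 3.04 in WT and 3.69 in R213G, 186 miRNAs were called higher in R213G against 182 without it, and no call of a member changed. Equal medians shifted the median miRNA by 0.12 in WT and 0.13 in R213G. DESeq2 and edgeR were not run, since the values are not counts.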
